A study of Mus musculus with 6 samples.

Results

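The genes of prostaglandin synthesis, breakdown, uptake and reception were followed in mouse cumulus-oocyte complexes cultured with the MTOR inhibitor Torin1. The set was named by gene symbol: the cyclooxygenases Ptgs1 and Ptgs2, the prostaglandin E synthases Ptges, Ptges2 and Ptges3, the degrading enzyme Hpgd, the uptake carrier Slco2a1 and the receptors Ptger2, Ptger4 and Ptgfr. Of these 10 genes, 9 were measured among 22180 genes in all, each by 1 probe set that names it alone; Ptgs1 is not analysed here. All 6 samples were wildtype complexes, oocytes with their enclosing cumulus cells, from females given 5 IU of eCG (equine chorionic gonadotropin, which drives follicle growth) 46 h earlier. The mice were 21 or 23 days old and the culture lasted 14 or 16 h, since the labels give both values of each. In 3 samples the medium held the vehicle DMSO, and in the other 3 it held 5 µM Torin1, which blocks the kinase MTOR by competing with ATP. Both groups received 3 mg/ml of albumin and 5 µM milrinone, which blocks the oocyte's PDE3 and so holds oocytes in meiotic arrest, and the labels name no gonadotropin or growth factor in the culture medium. Each sample pooled complexes, at 100 per group by the labels, and nothing says whether the sets came from separate mice or days. The p-values therefore rest on the variation among these 6 samples alone, which may be technical.

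Prostaglandins are made from arachidonic acid, which phospholipase A2 frees from membranes. Cyclooxygenases convert it to prostaglandin H2, and terminal synthases make prostaglandin E2 and other prostanoids from that intermediate. Carriers take prostaglandins up into cells, 15-hydroxyprostaglandin dehydrogenase inactivates them there, and G protein-coupled receptors on the cell surface read them. In the preovulatory follicle, Ptgs2 is induced in granulosa and cumulus cells, and prostaglandin E2 acting through the receptor encoded by Ptger2 is needed for normal cumulus expansion and fertilization.

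Values are log2(intensity + 1) throughout, and a change is Torin1 minus DMSO on that scale, which understates the change of dim genes. The median gene lay at 4.17, and levels near or below it are called dim, since no background per probe was used here. Among replicates, the standard deviation (SD) of the log2 difference between 2 arrays over all genes ran from 0.204 to 0.240, except for Torin1 sample 3, which differed from Torin1 samples 1 and 2 by 0.327 and 0.350. The description of Torin1 sample 3 also carries the short name of sample 2. All 10 oocyte markers lay above the median gene in both groups, and none was called (changes from 0.08 to 0.39, with 0.0658 the lowest adjusted p). All 10 markers of cumulus and granulosa cells lay above it in DMSO and 7 did in Torin1; 8 fell and 1, Inhba, rose, and their summed intensity was 3485 to 3918 in DMSO and 2221 to 2574 in Torin1. In these bulk samples, fewer cumulus cells and less of these transcripts per cell cannot be told apart, and the part of this fall in the results was not tested. Of 8 leukocyte markers, 7 were dim in both groups, Ptprc and Adgre1 among them, and Cd68 rose from 4.39 to 4.93. Of 8 endothelial markers, 5 were dim in both groups, Pecam1 lay above the median gene in both (5.69 and 5.89, not called), and Cdh5 rose from 4.10 to 6.43. Of 7 theca and stroma markers measured, 3 lay above the median gene in DMSO and 2 in Torin1. Cyp17a1, which defines theca cells, was dim in both groups (2.82 and 2.87). Ptch1 fell from 7.58 to 6.05 and Pdgfra from 4.89 to 4.07, while Col1a1 was not called (5.18 and 4.88). The 3 platelet markers measured were not called.

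With Torin1 the prostaglandin genes moved in both directions. The inducible cyclooxygenase gene Ptgs2 rose and the degrading enzyme gene Hpgd fell, both by far more than their replicates differed. Ptges rose less, and the prostaglandin E2 receptor genes split, with Ptger4 higher and Ptger2 lower. By limma with Benjamini-Hochberg adjustment over all genes, 3 of the 9 measured genes rose, 2 fell and 4 were not called, against 12.1% of all genes called (5.13% higher and 6.94% lower). The median change of the 9 was 0.35, beside 0.01 over all genes, and their median absolute change was 0.70, beside 0.11. Groups did not overlap in 7 of the 9 genes, beside 28.6% of all genes. By mean level, 8 of the 9 lay above the median gene, as did 11090 of all 22180 genes. When only those 11090 genes were fitted, 2740 were called, with 3 prostaglandin genes higher and 2 lower. The set was also chosen with earlier results of these data known.

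**Figure D1:**
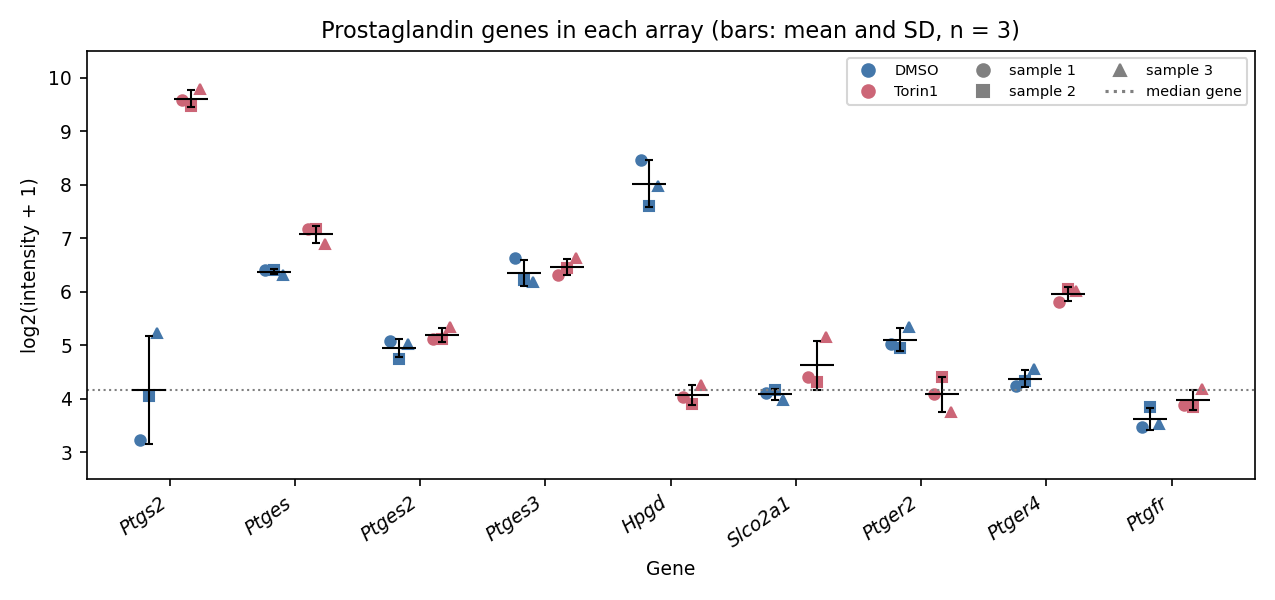
Level of each measured prostaglandin gene in each array as log2(intensity + 1), with DMSO in blue, Torin1 in red, marker shapes for samples 1 to 3, bars for the mean and SD (n = 3) and a dotted line at the median gene, 4.17. Ptgs2 sits between 3.22 and 5.23 in DMSO and between 9.46 and 9.78 in Torin1, Hpgd falls from at least 7.60 to at most 4.26, and Ptges3 and Ptgfr overlap between the groups.

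Ptgs2 encodes cyclooxygenase 2, the inducible enzyme that commits arachidonic acid to prostanoids. Its log2 level was 3.22, 4.04 and 5.23 in DMSO samples 1, 2 and 3, and 9.57, 9.46 and 9.78 in Torin1 samples 1, 2 and 3. The DMSO samples spread widely around the level of the median gene and the Torin1 samples lay close together, with 4.23 log2 units between the nearest samples of the 2 groups. On the deposited linear scale, the intensities were 8.3, 15.5 and 36.4 in DMSO and 759.5, 702.9 and 877.4 in Torin1. The change was 5.44 ± 0.45 (SE; adjusted p = 0.000597, limma), the largest rise of the 22180 genes. Its 95% interval ran from 4.38 to 6.50, and leaving out 1 array at a time gave 4.97 to 5.97. The DMSO mean of 4.16 ± 1.01 (SD, n = 3) was dim, so the base of this rise is poorly measured. The ratio of mean intensities was 38.9, and the log2 change was 4.53 with a pseudocount of 16.

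A neighbouring transcript on the same chromosome, Ptgs2os, named as the opposite-strand partner of Ptgs2, was chosen after its values were seen. It was dim, at 3.58, 3.74 and 3.60 in DMSO and 4.31, 4.23 and 4.38 in Torin1. All 3 Torin1 values lay above the DMSO values, and the change of 0.67 ± 0.08 (SE) was called (adjusted p = 0.00314, limma). The strand that each probe set reads is not given in the sources used here.

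Nearest profiles were sought among 17271 genes, with symbols of predicted, accession-like, Riken and similar form left out. Over the 6 arrays, those nearest to Ptgs2 were Btc, for the EGF-family ligand betacellulin, Gpr83, a G protein-coupled receptor, and Il23a, a cytokine subunit. After each gene's mean was subtracted, their root mean square distances from Ptgs2 were 0.62, 0.63 and 0.71 log2 units, and their changes were 4.50, 4.75 and 4.60. This distance over 6 arrays is set mainly by the difference between the groups.

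The terminal synthases convert prostaglandin H2 to prostaglandin E2, and of the 3 only Ptges was called. Ptges, the microsomal and inducible enzyme, lay at 6.40, 6.40 and 6.31 in DMSO and at 7.17, 7.16 and 6.88 in Torin1. All Torin1 values were above all DMSO values, and Torin1 sample 3 was the lowest of its group. The change was 0.70 ± 0.10 (SE), or 1.62-fold (adjusted p = 0.00507, limma), and it was called in each of the 6 fits that leave out an array.

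Ptges2, a membrane-associated synthase, lay at 5.07, 4.75 and 5.02 in DMSO and at 5.10, 5.11 and 5.34 in Torin1. The groups were separated by 0.032 log2 units, less than the spread within either. Its change of 0.24 ± 0.12 (SE) was not called (adjusted p = 0.277, limma; 95% interval -0.035 to 0.51). Ptges3, the cytosolic synthase that also serves as the HSP90 co-chaperone p23, lay at 6.63, 6.22 and 6.18 in DMSO and at 6.31, 6.43 and 6.63 in Torin1. Its groups overlapped, and the change of 0.11 ± 0.14 was not called (adjusted p = 0.759, limma; 95% interval -0.23 to 0.45). A further 2 probe sets name Ptges3 together with its pseudogene Ptges3-ps; they ran from 8.06 to 8.31 and from 6.88 to 7.37 in DMSO, and from 8.11 to 8.27 and from 7.02 to 7.14 in Torin1, with overlapping groups in both.

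Within each array, Ptges was set against the other 2 synthases to ask whether its rise differed from theirs. The change of Ptges exceeded that of Ptges2 by 0.46 ± 0.21 (SE; exact two-sided permutation p = 0.2, n = 3 each) and that of Ptges3 by 0.59 ± 0.22 (exact p = 0.1). These p-values are not adjusted for the 4 pairs that could be compared. The design cannot go below 0.1, so this test could not decide whether the changes of the synthases differ.

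Hpgd encodes 15-hydroxyprostaglandin dehydrogenase, the enzyme that inactivates prostaglandins E2 and F2α. Its log2 level was 8.47, 7.60 and 7.98 in DMSO and 4.03, 3.90 and 4.26 in Torin1. Each Torin1 value lay at least 3.33 log2 units below each DMSO value, and 2 of the 3 were below the median gene. Intensities were 352.6, 192.5 and 251.0 in DMSO and 15.3, 14.0 and 18.2 in Torin1. Hpgd fell by 3.95 on the log2 scale (SE 0.22; adjusted p = 0.000134, limma), the fall ranked 2 among the 22180 genes. The 95% interval was -4.46 to -3.44, and the change lay between -4.16 and -3.72 when any 1 array was left out. The Torin1 mean of 4.07 ± 0.18 (SD, n = 3) was dim, and with a pseudocount of 16 the change was -3.11. On the same arrays the 10 cumulus and granulosa markers had a median change of -1.32, and they ranged widely: Amhr2 changed by -4.00, as much as Hpgd, Fshr by -2.78 and Slc38a3 by -2.50, while Nr5a1 changed by 0.004 and Inhba by 2.06.

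Among the same 17271 genes, the profiles nearest to that of Hpgd belonged to Slc38a5, an amino acid transporter, Slc18a2, a vesicular monoamine transporter, and Smpdl3b, a sphingomyelinase-like enzyme. Their distances were 0.30, 0.38 and 0.43 log2 units, and their changes -3.36, -3.53 and -3.22.

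Slco2a1 encodes the prostaglandin transporter, which carries prostaglandins into cells where the dehydrogenase acts. It was dim in DMSO, at 4.10, 4.16 and 3.97, and lay at 4.40, 4.31 and 5.15 in Torin1. The groups did not overlap, but Torin1 sample 3 stood well above the other Torin1 samples. The change of 0.55 ± 0.21 (SE) was not called (adjusted p = 0.174, limma; 95% interval 0.041 to 1.05), and it was 0.28 without Torin1 sample 3. With Torin1 samples 2 and 3 averaged as 1 sample it was 0.49 and was called (adjusted p = 0.0447, limma). The change of Hpgd was below that of Slco2a1, with a difference of -4.49 (SE 0.32). The exact two-sided permutation p was 0.1 (n = 3 each), not adjusted for the 4 pairs. Since 0.1 is the smallest p possible, this test could not decide whether the 2 changes differ. The log2 ratio of Hpgd to Slco2a1 within an array was 3.44 to 4.36 in DMSO and -0.89 to -0.37 in Torin1, with no overlap. The limma 95% intervals of the 2 changes also lay apart, at -4.46 to -3.44 for Hpgd and 0.041 to 1.05 for Slco2a1.

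The 250 bases before the transcription start of Ptgs2 and Hpgd, the genes with the largest rise and fall of the set, are shown for comparison, from RefSeq on GRCm38.p6. Both strands were searched for TGACGTCA (cAMP response element), its half-site TGACG, which overlaps it, CACGTG (E-box), CCAAT (a box bound by NF-Y), GGGCGG (GC box), TTNNGNAA (C/EBP element), TGANTCA (AP-1), TATAAA and GTAAACA (forkhead element), and capitals mark every match. The Ptgs2 sequence lies at chr1:150099781-150100030, plus strand, and the Hpgd sequence at chr8:56294302-56294551, plus strand.
Ptgs2: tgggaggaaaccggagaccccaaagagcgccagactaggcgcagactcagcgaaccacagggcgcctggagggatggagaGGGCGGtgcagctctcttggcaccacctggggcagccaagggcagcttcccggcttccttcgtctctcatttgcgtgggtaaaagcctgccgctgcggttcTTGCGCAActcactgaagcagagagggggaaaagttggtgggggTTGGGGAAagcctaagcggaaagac
Hpgd: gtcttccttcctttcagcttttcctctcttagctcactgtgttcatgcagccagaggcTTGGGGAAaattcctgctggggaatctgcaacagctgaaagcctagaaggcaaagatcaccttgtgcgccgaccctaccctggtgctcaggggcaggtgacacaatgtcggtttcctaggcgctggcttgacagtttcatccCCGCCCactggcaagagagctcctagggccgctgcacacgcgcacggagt
Both held 1 GC box, and 32.7% of 32851 promoter windows in the table held at least 1. The C/EBP element was found at 2 places for Ptgs2, TTGCGCAA from base 69 and TTGGGGAA from base 25 before the start, and at 1 place for Hpgd, TTGGGGAA from base 192; 36.8% of all windows held at least 1. None of the other letters searched was in either window. Bases after the start that RefSeq gives were not searched, so a motif there would not be seen. A match is a description of the sequence, not a bound site.

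Of the receptor genes for prostaglandin E2, Ptger4 rose and Ptger2 fell. Ptger2 and Ptger4 encode EP2 and EP4, which both raise cyclic AMP through Gs. Ptger4 lay at 4.24, 4.32 and 4.55 in DMSO and at 5.81, 6.05 and 6.01 in Torin1. Every Torin1 value was at least 1.25 log2 units above every DMSO value, and the change was 1.58 ± 0.11 (SE), or 3.00-fold (adjusted p = 0.00036, limma). The change lay between 1.52 and 1.67 when any 1 array was left out. The DMSO values lay near the median gene and so were dim, and with a pseudocount of 16 the change was 1.11.

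Ptger2 went the other way, from 5.02, 4.94 and 5.34 in DMSO to 4.09, 4.41 and 3.75 in Torin1. The groups were 0.53 log2 units apart, with 2 Torin1 samples below the median gene. It fell by 1.02 on the log2 scale (SE 0.18; adjusted p = 0.013, limma), a 2.02-fold fall. The Torin1 values were dim, and with a pseudocount of 16 the change was -0.62. Without DMSO sample 3, its highest value, the change was -0.897 and not called (adjusted p = 0.0515, limma). Set against each other within arrays, the change of Ptger2 was below that of Ptger4, with a difference of -2.6 (SE 0.20). The exact two-sided permutation p was 0.1 (n = 3 each), not adjusted for the 4 pairs. It is the smallest possible, so this test could not decide here either. The log2 ratio of Ptger2 to Ptger4 within an array was 0.62 to 0.79 in DMSO and -2.26 to -1.64 in Torin1, with no overlap.

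Ptgfr, the receptor for prostaglandin F2α, was dim in both groups. It lay at 3.48, 3.85 and 3.52 in DMSO and at 3.88, 3.84 and 4.18 in Torin1. Its groups overlapped, since DMSO sample 2 lay above Torin1 sample 2, and the change of 0.35 ± 0.14 (SE) was not called (adjusted p = 0.167, limma; 95% interval 0.032 to 0.68).

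The windows before the Ptger2 and Ptger4 starts are shown because the genes encode receptors for the same ligand and moved in opposite directions. They lie at chr14:44987861-44988110 (plus strand) and chr15:5244188-5244437 (minus strand) of GRCm38.p6, with capitals for the same motifs.
Ptger2: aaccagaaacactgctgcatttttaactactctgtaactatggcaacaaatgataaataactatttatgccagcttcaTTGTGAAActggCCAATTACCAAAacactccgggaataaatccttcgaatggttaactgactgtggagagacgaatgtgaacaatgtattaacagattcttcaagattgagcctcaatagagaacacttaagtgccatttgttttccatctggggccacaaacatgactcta
Ptger4: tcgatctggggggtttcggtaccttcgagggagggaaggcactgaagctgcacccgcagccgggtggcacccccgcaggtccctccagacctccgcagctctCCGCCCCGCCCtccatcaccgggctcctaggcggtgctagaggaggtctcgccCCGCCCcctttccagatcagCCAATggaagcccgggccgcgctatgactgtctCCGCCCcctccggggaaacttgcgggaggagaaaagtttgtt
G and C made up 38.0% of the Ptger2 window and 66.8% of the Ptger4 window. The Ptger4 window held 4 GC boxes on the minus strand of the gene, of which a pair share a base, and the Ptger2 window held none. Each held 1 CCAAT sequence, and 33.8% of all windows held at least 1, and the Ptger2 window held 2 C/EBP elements, of which 1 overlaps its CCAAT sequence by a base.

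**Figure D2:**
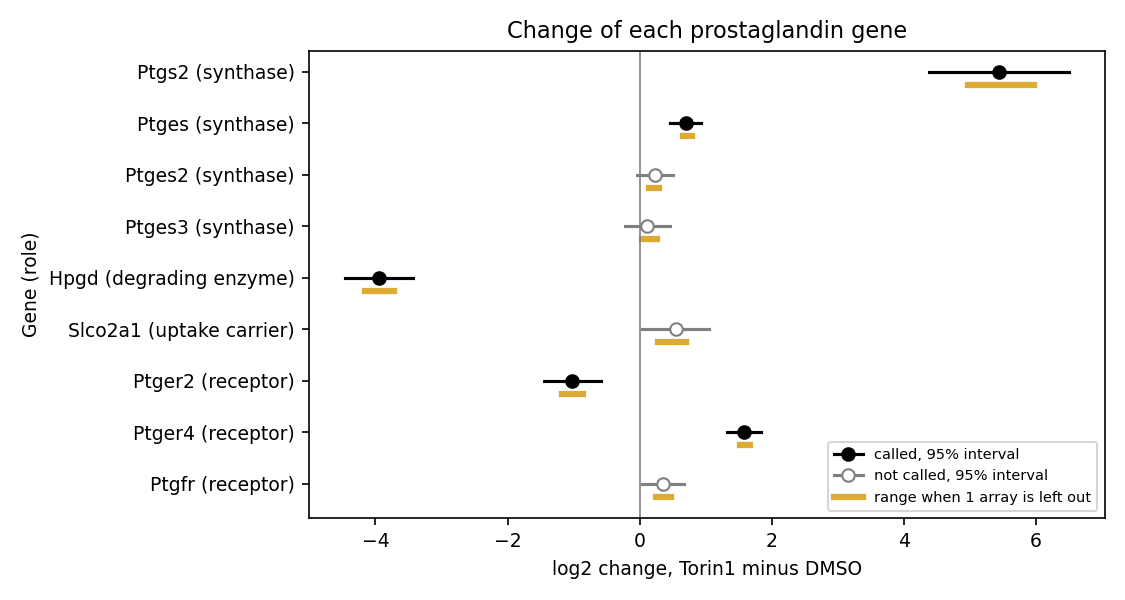
Change of each gene, Torin1 minus DMSO on the log2 scale, with its 95% interval from limma (black where called at an adjusted p below 0.05, grey with an open circle where not) and, in yellow, the range when 1 array at a time was left out. Ptgs2 at 5.44 and Hpgd at -3.95 lie far from 0, Ptger4 and Ptger2 lie on opposite sides of 0, and the 4 genes not called lie between 0.11 and 0.55.

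**Figure D3:**
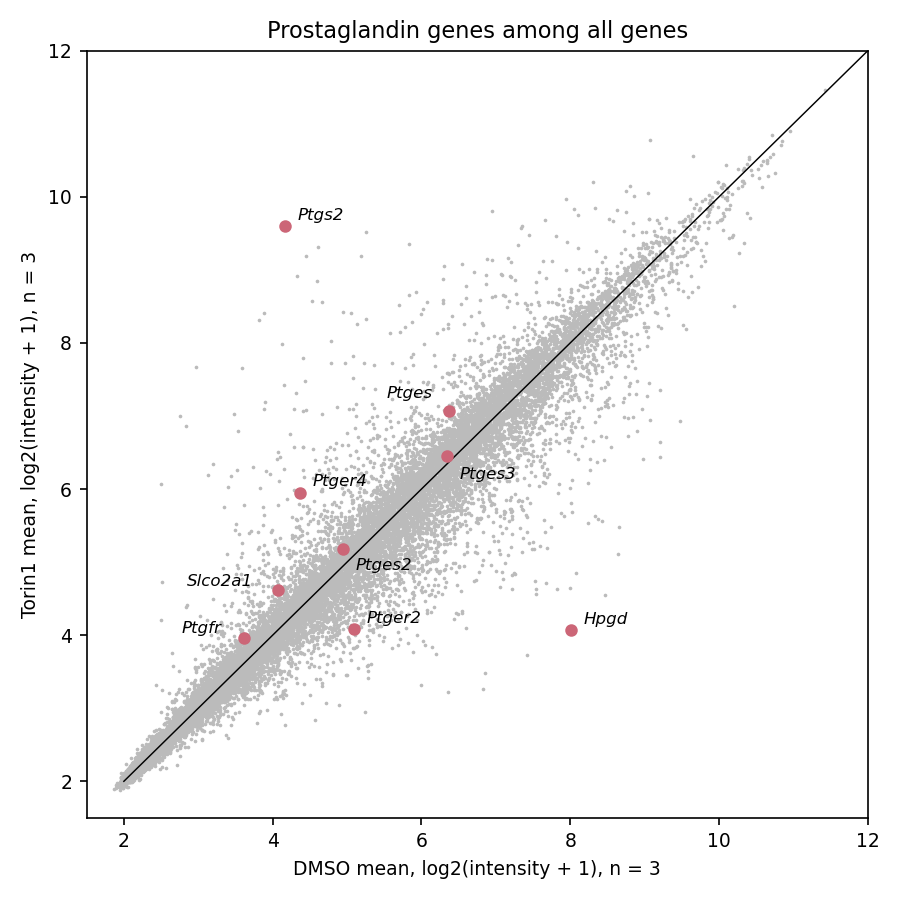
Mean log2(intensity + 1) in DMSO (horizontal) against Torin1 (vertical), n = 3 each, for all 22180 genes in grey and the 9 prostaglandin genes in red, with the line of equal levels. Ptgs2 and Hpgd lie at the upper and lower edge of all genes, while Ptges2, Ptges3, Ptgfr and Slco2a1 lie close to the line.

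Upstream and downstream of these genes, a wider list of 52 prostanoid and leukotriene genes was examined, of which 46 were measured. On this list 4 rose, 4 fell and 38 were not called, and the median change was 0.02. The share called, 17.4%, is near the 12.1% of all genes. By mean level, 25 of the 46 lay below the median gene, a share near that of all genes (11090 of 22180).

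Among 17 genes that release and handle arachidonic acid, 3 rose and none fell, so 17.65% were called, near the 12.1% of all genes. Pla2g4a encodes cytosolic phospholipase A2, which frees arachidonic acid from membranes. It lay at 7.16, 7.02 and 7.27 in DMSO and at 8.38, 8.39 and 8.72 in Torin1. The groups were well apart, and the change was 1.35 ± 0.12 (SE; adjusted p = 0.000794, limma). Acsl4, an acyl-CoA synthetase that prefers arachidonic acid, lay at 5.92, 6.03 and 6.50 in DMSO and at 7.22, 7.72 and 7.27 in Torin1, a change of 1.25 ± 0.19 (adjusted p = 0.00704, limma). Both were called in each of the 6 fits that leave out an array. Plaa, named for activation of phospholipase A2, rose by 0.38 ± 0.07 (adjusted p = 0.0147, limma) and was not called without DMSO sample 3 (adjusted p = 0.0671, limma).

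Of 6 other prostanoid synthases, 2 fell and none rose (33.3% called, beside 12.1% of all genes, on few genes). Ptgis, the prostacyclin synthase, lay at 8.43, 7.81 and 7.55 in DMSO and at 6.56, 6.55 and 6.92 in Torin1. All Torin1 values were lower, and Ptgis fell by 1.25 (SE 0.23; adjusted p = 0.0133, limma); without Torin1 sample 1 it was not called (adjusted p = 0.0514, limma). Cbr1, a carbonyl reductase that can turn prostaglandin E2 into F2α, lay at 7.90, 7.97 and 8.13 in DMSO and at 7.36, 7.31 and 7.17 in Torin1, a change of -0.72 ± 0.09 (adjusted p = 0.00381, limma). Ptgds, a prostaglandin D synthase, and Tbxas1, the thromboxane synthase, were dim in both groups, with changes of -0.06 ± 0.08 and 0.06 ± 0.08 that were not called.

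Of 6 other genes of breakdown and transport, 2 fell and 1 rose (50.0% called, beside 12.1% of all genes, on few genes). Zadh2 encodes a reductase that acts on the oxidised products of the dehydrogenase. It lay at 6.57, 6.33 and 6.32 in DMSO and at 4.99, 4.98 and 4.78 in Torin1. The groups were far apart beside their spread, and the change was -1.49 ± 0.10 (SE; adjusted p = 0.000341, limma). The change of Ptgr1, another such reductase, was -0.04 ± 0.14 and was not called (adjusted p = 0.931, limma). Slco3a1, an organic anion carrier, fell by 0.58 (SE 0.07; adjusted p = 0.00264, limma), from 7.98 to 8.09 in DMSO to 7.42 to 7.45 in Torin1. Abcc4, an exporter of prostaglandins, lay at 5.20 to 5.24 in DMSO and at 5.07 to 5.11 in Torin1, and its change of -0.13 ± 0.07 was not called (adjusted p = 0.286, limma; 95% interval -0.29 to 0.02). The rise of Slco2b1, a related carrier that was dim in both groups, was 0.34 ± 0.08 (adjusted p = 0.0427, limma); it was lost in all 6 fits that leave out an array (adjusted p from 0.0747 to 0.142, limma) and was 0.14 with the mean of its probe sets.

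None of 5 genes listed with the other prostanoid receptors, Ptgfrn among them, or of 12 genes of the lipoxygenase and leukotriene branch was called. Most were dim, with 4 of the 5 and 10 of the 12 below the median gene. At an unadjusted p under 0.05 in limma, 0 of the receptor list and 2 of the lipoxygenase branch genes passed, beside 24.0% of all genes. Ptger3, which encodes the receptor EP3, was dim, at 3.43 to 3.61 in DMSO and 3.63 to 3.79 in Torin1, with a change of 0.15 ± 0.09 (adjusted p = 0.375, limma; 95% interval -0.05 to 0.36). Ptger1 is not analysed here.

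**Figure D4:**
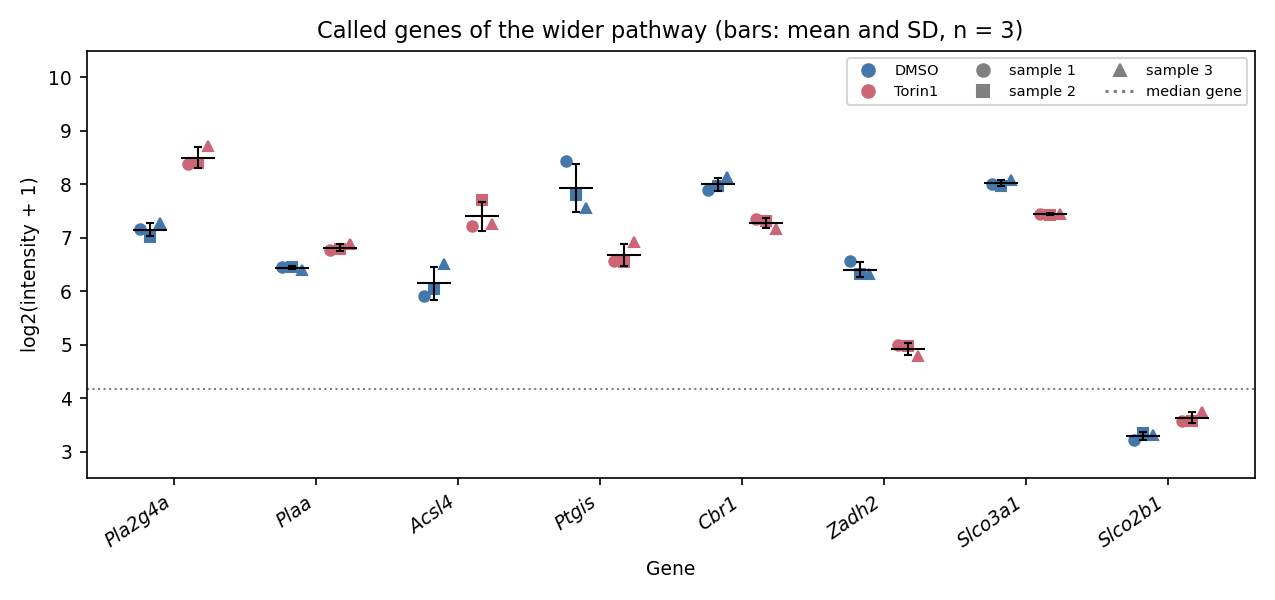
Level of the 8 called genes of the wider pathway in each array as log2(intensity + 1), DMSO in blue, Torin1 in red, marker shapes for samples 1 to 3, bars for the mean and SD (n = 3) and a dotted line at the median gene. Pla2g4a, Plaa and Acsl4 are higher and Ptgis, Cbr1, Zadh2 and Slco3a1 lower with Torin1, while Slco2b1 lies below the median gene in both groups.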

How the data were processed

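The deposited intensities are 1 linear value per probe set and array, for which the submitters' processing notes list RMA, Affymetrix Expression Console 1.1 and GCOS; the settings used by the authors are not given in the sources here. Quantile normalization in RMA gives all arrays 1 distribution of probe values before these are summarised per probe set, and changes are therefore relative to other transcripts. The medians of the deposited intensities still ran from 11.1 to 12.0 between arrays. Samples were grouped by title into 3 DMSO and 3 Torin1 arrays. Probe sets naming 1 gene in the platform's table (23521 of 41345) gave 22180 genes, with the probe set of highest mean log2(intensity + 1) kept for each. The groups were compared with lmFit and eBayes of limma 3.58.1 (R 4.3.3; two-sided), without covariates or a filter on dim genes, and genes were called at a Benjamini-Hochberg adjusted p below 0.05 over all genes. The script was tested on simulated data. Named genes were all members, called genes of the wider list and a fixed few, and the 3 nearest profiles of Ptgs2 and Hpgd. The members, lists and motifs were chosen with earlier results of these data known. Alternatives were another pseudocount (16), a filter on dim genes, all probe sets of a gene, centred array medians, a trended robust variance, the replicate number as a block, Torin1 samples 2 and 3 as 1 sample, and each array left out. Ptgs1 and the pair of Ptgs2 with Ptgs1 were not analysed here. The number of arrays limits the precision. Promoter windows and gene identifiers came from RefSeq, GRCm38.p6, and all 10 genes matched.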

Additional observations from a re-analysis of the deposited data

How the results depend on the processing

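The changes of the 9 genes kept their direction in all 116 alternative values, and 113 also stayed on the same side of the threshold. The exceptions were Ptger2, not called with the replicate block (-1.02, adjusted p = 0.0571, limma) or without DMSO sample 3 (range of its leave-one-out changes -1.18 to -0.85), and Slco2a1, called with Torin1 samples 2 and 3 averaged (0.49, adjusted p = 0.0447, limma). Samples sharing a number did not deviate together (correlations of -0.207, -0.300 and -0.148), so the numbers were not taken to pair the samples. The block left 1 of the 2 falls among the prostaglandin genes, 2 of the 4 rises on the wider list (Plaa and Slco2b1 were lost, with adjusted p of 0.0846 and 0.117, limma) and 1565 of the 2678 calls over all genes. Leaving out 1 array gave 1 to 2 such falls, 2 to 3 such rises and 1518 to 3083 calls. Of the wider pathway's named genes and Ptgs2os, 163 of 177 alternative values kept direction and call; the change of Ptgr1, which was not called, turned positive at 0.10 without Torin1 sample 3 (leave-one-out range -0.18 to 0.10). All 32 alternative values of the pair differences kept their direction. Signal over background was not measured here. Ptgfr, Slco2b1, Ptgds, Tbxas1, Ptger3 and Ptgs2os, whose means over all arrays lay below the median gene, gave no value with the filter on dim genes.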
